A study of Rattus norvegicus and Mus musculus with 9 samples.

Results

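The genes described here make or guard the ends of chromosomes. They were fixed as a list of 9 symbols: Tert, which encodes the catalytic subunit of telomerase, the shelterin genes Terf1, Terf2, Terf2ip, Tinf2, Acd and Pot1, and the telomere-associated genes Rif1 and Rtel1. The members were found by symbol, case ignored. The rat platform's annotation named probe sets for 7 of the 9 among 14506 named genes, and the mouse platform's for 8 of the 9 among 19938. Rif1 and Pot1 were not matched in the rat table and were not analysed there, and Pot1 itself was not matched in the mouse table, where the paralogues Pot1a and Pot1b were. All 7 rat members were tested, since no filter on level was applied, and each had 1 probe set in either table.

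RNA was measured on 9 microarrays, with 3 per group. Rat embryonic stem (ES) cells of strain DA had been grown in a medium named 3I. Rat embryonic fibroblasts of the same strain were grown in GMEM with 10% FBS (fetal bovine serum). Mouse ES cells of strain C57/BL6 were grown in GMEM with 10% FBS and LIF (leukaemia inhibitory factor), with feeder cells taken out before RNA was prepared. The labels name no genetic change in any group, and leave unsaid whether each array had its own culture. The p-values thus cover the spread among 3 arrays a group, and that spread could be technical alone. Cell type and medium differed together between the rat groups, and their parts in any difference cannot be told apart. Values are log2 signals, on which a step of 1 is a doubling.

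Telomeres are tandem repeats that shorten at each round of replication because the replication machinery cannot copy the last stretch of the lagging strand. Telomerase, a reverse transcriptase that carries its own RNA template, adds repeats back, and is known to be active in pluripotent and germ cells and low or absent in most somatic cells of many mammals, although rodent somatic cells often keep some activity. Shelterin coats the repeats: the products of Terf1 and Terf2 (TRF1 and TRF2) bind the double strand, that of Pot1 binds the single-stranded overhang, those of Tinf2 and Acd (TIN2 and TPP1) join both, and that of Terf2ip (RAP1) rides on TRF2. Rif1 controls replication timing and repair at breaks and telomeres, and Rtel1 is a helicase that opens telomeric loops and secondary structures for replication.

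The labels of the rat groups were checked against marker genes. All 7 measured pluripotent cell markers were called higher in rat ES cells, with summed linear signals of 10810 to 11340 against 238.3 to 274.8 in fibroblasts. Of 12 fibroblast markers, 10 were called lower, with sums of 8178 to 9723 in rat ES cells and 67190 to 70660 in fibroblasts. Fn1, which was not called (log2 difference -0.86), made up most of the rat ES sum. Rat ES array 3 had the highest fibroblast marker sum of its group (9723) and the lowest pluripotent one (10810). Of 6 endothelial and blood markers, the endothelial receptor gene Tek was called lower and none higher, and their sums lay at 122.7 to 140.4 over all 6 arrays. No defining marker can be read as 0 on this scale. Fn1 (12.58 in rat ES cells) and Col1a1 (10.15) were well above the rat array medians of 5.71 to 5.74 in rat ES cells too, and their part in the results was not tested.

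In rat ES cells, Tert and Terf1 were the members that rose at least 2-fold. Tert was 4.84-fold and Terf1 4.35-fold higher than in fibroblasts, Acd (1.98-fold) lay just under that size, and Rtel1 (1.78-fold) and Terf2ip (1.68-fold) differed less. Terf2 differed by 1.24-fold and Tinf2 by 1.07-fold. Genes were called at a limma adjusted p under 0.05 (Benjamini-Hochberg over all 14506 genes) and a difference of at least 2-fold. By this rule 2 of 7 members were called higher and 0 lower, where 10.6% of all genes were called higher and 10.1% lower. Without the fold threshold 6 of 7 passed, all higher, where 30.9% of all genes passed as higher, and 5 of 7 were at least 1.5-fold higher, where 19.5% of all genes were. The median log2 difference of the 7 was 0.83, against -0.000688 over all genes tested.

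**Figure D1:**
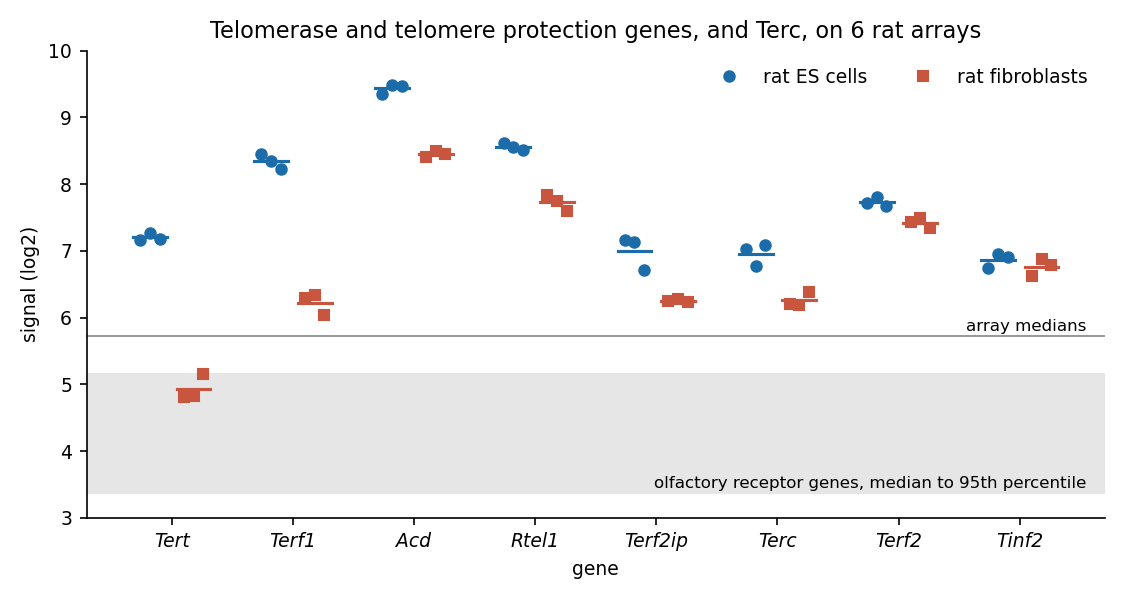
Signal (log2) of the 7 measured members and of Terc, the telomerase RNA gene, on each of 3 rat ES arrays (circles) and 3 rat fibroblast arrays (squares), with group means as lines. The grey line marks the array medians, and the grey band runs from the lowest array median to the highest 95th percentile of 53 olfactory receptor genes. Tert lies above the band on the rat ES arrays and in it on the fibroblast arrays, and the groups overlap for Tinf2.

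The start-site windows of the members are shown because they let the sequence next to the gene with the largest difference (Tert) be set beside that of a shelterin gene near the fold threshold (Acd) and that of the gene with the smallest difference (Tinf2). RefSeq windows of 250 bases before to 50 bases after 1 annotated start were matched by symbol for 7 of the 9 members (build GRCr8, rat). Terf1 and Pot1 had no window, so Tert is the only called member with a sequence. Rif1 had a window but was not measured in rat. The genes can have other starts. The windows lie at chr1:31488062-31488361 (minus strand), chr19:50499277-50499576 (minus strand) and chr15:33146881-33147180 (minus strand). Each is written 5′ to 3′, and capitals mark matches on either strand to the E-box CACGTG (the Myc, Max and Usf site), the GC box GGGCGG (the Sp1 site), the ETS motif CCGGAAG and the telomeric repeat TTAGGG.
Tert: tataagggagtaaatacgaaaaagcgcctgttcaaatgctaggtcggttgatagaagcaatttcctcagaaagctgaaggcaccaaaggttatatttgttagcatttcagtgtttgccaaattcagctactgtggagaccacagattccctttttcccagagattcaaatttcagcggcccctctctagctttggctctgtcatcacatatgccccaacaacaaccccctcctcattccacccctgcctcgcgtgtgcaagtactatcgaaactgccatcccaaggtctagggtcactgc
Acd: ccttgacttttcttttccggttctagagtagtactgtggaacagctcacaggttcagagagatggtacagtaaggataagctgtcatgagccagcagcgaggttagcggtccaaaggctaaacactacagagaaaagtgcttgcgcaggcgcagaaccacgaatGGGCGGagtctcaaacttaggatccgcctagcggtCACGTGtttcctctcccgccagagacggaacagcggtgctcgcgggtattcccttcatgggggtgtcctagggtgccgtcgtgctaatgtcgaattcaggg
Tinf2: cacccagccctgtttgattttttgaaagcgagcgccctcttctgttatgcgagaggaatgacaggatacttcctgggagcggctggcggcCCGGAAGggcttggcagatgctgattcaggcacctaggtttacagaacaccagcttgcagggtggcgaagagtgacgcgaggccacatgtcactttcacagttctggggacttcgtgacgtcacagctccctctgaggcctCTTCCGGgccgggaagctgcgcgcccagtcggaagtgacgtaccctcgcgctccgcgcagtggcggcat

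No match to any of the 4 motifs was found in the Tert window. The Acd window held 1 E-box and 1 GC box, and the Tinf2 window 2 ETS motifs. Over the 7 windows, the ETS motif was in 4 (Terf2, Terf2ip, Tinf2 and Rtel1), where 8.75% of all 33469 windows held it. The GC box was in 5 (Terf2, Terf2ip, Acd, Rif1 and Rtel1), against 33.1% of all. The E-box was in 1, against 6.42%, and the telomeric repeat in 0, against 10.5%. No 2 matches of different motifs overlapped in the printed windows. The Tert window had a GC content of 47.0%, below the median of 51.7% over all windows, while the other 6 lay between 53.7% (Rtel1) and 66.7% (Rif1). The 4 motifs were chosen after the sequences were seen, so these counts are a description and cannot show enrichment. The part of GC content in them was not tested. A match is a string of letters and no measure of binding.

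Tert provides the reverse transcriptase activity of telomerase. Its signals were 7.16, 7.28 and 7.18 on the rat ES arrays and 4.82, 4.82 and 5.15 on the fibroblast arrays. The groups were apart, with a gap of 2.01 between the lowest ES and the highest fibroblast array. The means were 7.21 ± 0.060 (SD, n = 3) and 4.93 ± 0.193, a log2 difference of 2.28 (SE 0.10, limma adjusted p = 2.49e-07), which 1.8% of all genes exceeded. In fibroblasts Tert lay below the array medians. Olfactory receptor genes, which neither cell type is known to use, gave a scale for such low signals: 53 of them were named on the rat platform, and the fibroblast Tert signal exceeded 90.6% to 94.3% of them, against 98.1% on every rat ES array. Their 95th percentile lay at 4.90 to 5.16. The fibroblast signal was therefore not separated from background, and the size of the Tert difference is uncertain.

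Terc, the RNA template of telomerase, is no member but was measured on both platforms. Its rat ES signals were 7.03, 6.77 and 7.08 and its fibroblast signals 6.21, 6.19 and 6.38. The groups did not overlap, and the log2 difference was 0.70 (SE 0.10, limma adjusted p = 3.46e-04), under 2-fold and so not called.

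Terf1 and Terf2 encode the 2 proteins that bind duplex telomeric repeats. The Terf1 signals were 8.45, 8.35 and 8.23 on the rat ES arrays and 6.29, 6.34 and 6.04 on the fibroblast arrays. The groups lay 1.90 apart at their nearest arrays, and the log2 difference was 2.12 (SE 0.10, limma adjusted p = 3.29e-07). Both group means, 8.34 ± 0.110 and 6.22 ± 0.162 (SD, n = 3), were above the array medians. For Terf2 the signals were 7.72, 7.81 and 7.67 in rat ES cells and 7.44, 7.49 and 7.34 in fibroblasts. These groups did not overlap either but were only 0.18 apart, with a log2 difference of 0.31 (SE 0.07, limma adjusted p = 0.00607).

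Whether the pair changed unequally was tested on the difference Terf1 minus Terf2 within each array, which says nothing of which gene has more RNA. It was 0.73, 0.54 and 0.56 on the rat ES arrays and -1.15, -1.16 and -1.31 on the fibroblast arrays. The means differed by 1.81 with no overlap. The exact permutation test over 20 assignments of the arrays gave p = 0.1 (two-sided), the smallest that 3 arrays against 3 can give, so this design cannot reach 0.05.

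Acd encodes TPP1, which bridges the shelterin proteins on both strands and recruits telomerase to the chromosome end. Its signals were 9.36, 9.48 and 9.47 in rat ES cells and 8.40, 8.49 and 8.45 in fibroblasts. The groups were 0.87 apart at their nearest arrays, and the log2 difference was 0.99 (SE 0.07, limma adjusted p = 3.2e-06). It missed the call only by its size, and was called without rat ES array 1 (1.03), without fibroblast array 2 (1.01) and after each array was centred on its median (1.06). Tinf2 encodes TIN2, which holds TRF1, TRF2 and TPP1 together. Its signals were 6.74, 6.95 and 6.90 in rat ES cells and 6.62, 6.88 and 6.80 in fibroblasts. Here the groups overlapped, and the log2 difference of 0.10 (SE 0.09) did not pass the test (limma adjusted p = 0.414).

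Terf2ip encodes RAP1. Its signals were 7.16, 7.13 and 6.71 in rat ES cells and 6.25, 6.28 and 6.24 in fibroblasts. Rat ES array 3 lay lowest of its group, and this was the array with the highest fibroblast marker sum, whose part in the value was not tested. That array was also lowest of its group for Terf1, Terf2 and Rtel1, but not for Tert, Tinf2 or Acd. The Terf2ip log2 difference was 0.75 (SE 0.12, limma adjusted p = 6.19e-04), and 0.89 without rat ES array 3. For the helicase gene Rtel1 the signals were 8.62, 8.56 and 8.51 in rat ES cells and 7.84, 7.75 and 7.60 in fibroblasts. The groups were 0.67 apart and the log2 difference was 0.83 (SE 0.08, limma adjusted p = 2.7e-05).

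In 6 of the 7 members every rat ES array was above every fibroblast array, where this held for 33.2% of all genes. The members were unlike in how far they differed. Tert ranked 262 and Terf1 325 in log2 difference among 14506 genes, followed by Acd at 1581, Rtel1 at 2022 and Terf2ip at 2266. Terf2 ranked 4076 and Tinf2 5745.

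Of 14 listed genes that build or regulate the telomerase particle, 12 were measured in the rat table. Of these, 11 were higher in rat ES cells at an adjusted p under 0.05, 6 of them by at least 2-fold and so called, and 0 were called lower. Over all genes, 30.9% were higher at that adjusted p, 10.6% were called higher and 10.1% were called lower. None of the related lists was tested as a set. Their median log2 difference was 0.94. Shq1, a chaperone of dyskerin, differed by 2.00 (mean 7.89 ± 0.060 against 5.89 ± 0.066, SD, n = 3), Nvl, a nucleolar ATPase, by 1.61 and Ruvbl2, an ATPase of the assembly machinery, by 1.53. Among the core proteins of the particle, Dkc1 (dyskerin, which holds the RNA) differed by 1.08 and Nhp2 by 1.38, both called. Gar1 (0.79) and Wrap53 (0.70), which guides the particle to Cajal bodies, were not called, and Nop10 differed by 0.0060 (limma adjusted p = 0.948).

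The CST complex (Ctc1, Stn1 and Ten1) binds the overhang and brings in polymerase alpha-primase to fill in the complementary strand. All 7 listed genes were measured. The median log2 difference was 1.19, with 4 called higher and 0 lower, where 10.6% of all genes were called higher and 10.1% lower. The called genes were the 4 subunits of polymerase alpha-primase: Pola1 (1.86), Prim1 (1.84), Prim2 (1.31) and Pola2 (1.19), which also start every Okazaki fragment in general replication. The CST subunits were not called. Ctc1 differed by 0.86, Ten1 by 0.0041 and Stn1 by -0.11.

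Of 22 partners of shelterin and end-processing genes, 15 were measured. Their median log2 difference was 0.69, with 3 called higher and 1 lower, where 10.6% of all genes were called higher and 10.1% lower. Exo1, the exonuclease that resects the C-strand, differed by 1.86, the endonuclease subunit gene Eme1 by 1.42 and Rad50, of the MRN complex that senses ends, by 1.21. Ercc1, which encodes a partner of the XPF nuclease, fell by 1.80 (7.16 ± 0.138 in rat ES cells, 8.96 ± 0.049 in fibroblasts, SD, n = 3, limma adjusted p = 3.2e-07). Within the MRN complex Mre11 differed by 0.70 and Nbn by -0.58, neither called. The tankyrase genes Tnks (0.58) and Tnks2 (0.69), and Dclre1b (0.18), which encodes the nuclease Apollo, were not called.

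Of 22 genes of telomeric chromatin and recombination, 17 were measured. Their median log2 difference was 0.40, with 3 called higher and 0 lower, where 10.6% of all genes were called higher and 10.1% lower. The histone methyltransferase genes Suv39h2 (1.71) and Kmt5c (1.54), whose products write marks of constitutive heterochromatin, and the recombination gene Rad51ap1 (1.20) were called. Suv39h1, at 0.998, lay at the threshold with its probe set of highest mean. It was at 0.75 with the mean of its probe sets and at 0.51 with its probe set of lowest mean. The count called higher was 4 after quantile normalization, 6 after centring on the median and 4 without rat ES array 1, rat ES array 2 or fibroblast array 3. It was 2 with a filter at the median of mean level, which leaves Rad51ap1 untested. Over all genes, 2996 were called in either direction in the main fit. That number was 2971 after quantile normalization, 3091 after median centring and 2994 to 3011 without such an array. It was 2308 with the filter, where fewer genes were tested. Of 6 genes that attach telomeres to the nuclear envelope in meiosis, 3 were measured and none was called by limma, where 2 had an unadjusted and also an adjusted p under 0.05. Both, Majin and Terb2, were higher in rat ES cells, where 30.9% of all genes were higher at such an adjusted p. Terb2 signals were 3.27 to 3.52 in rat ES cells and 3.04 to 3.23 in fibroblasts. The olfactory receptor medians were 3.35 to 3.54, so Terb2 was not separated from background in either group. The largest of the 3 was Majin at 0.98, which was called without rat ES array 1 (1.04), rat ES array 3 (1.03) or fibroblast array 2 (1.10), after quantile normalization (1.04) and after median centring (1.04). Its fibroblast signals of 4.11 to 4.60 lay under the 95th percentile of the olfactory receptor genes, so its size and its side of the threshold are uncertain.

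Of 18 listed regulators of the Tert promoter, 16 were measured. Their median log2 difference was 0.46. Mycn (2.27), Klf4 (1.89) and Sp1 (1.11) were the 3 called higher, and Myc the 1 called lower. Over all genes, 10.6% were called higher and 10.1% lower. Sp1 was under 2-fold without fibroblast array 3 (0.99). Myc fell by 3.31 (4.12 ± 0.603 in rat ES cells, below the array medians, and 7.43 ± 0.040 in fibroblasts, SD, n = 3), though its rat ES signals of 3.60 to 4.78 lay under the 95th percentile of the olfactory receptor genes, so the size of this difference is uncertain. Mycn was at 8.44 ± 0.094 and 6.17 ± 0.167 in the same groups. Their shared partner Max differed by 0.085 (limma adjusted p = 0.369). Wt1, which encodes a repressor or activator depending on context, had signals of 4.64 and 5.02, both under the array medians. The 9 listed genes of recombination-based telomere elongation in ES cells, the Zscan4 and Tcstv genes, had no named probe set in the rat table and were not analysed there.

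**Figure D2:**
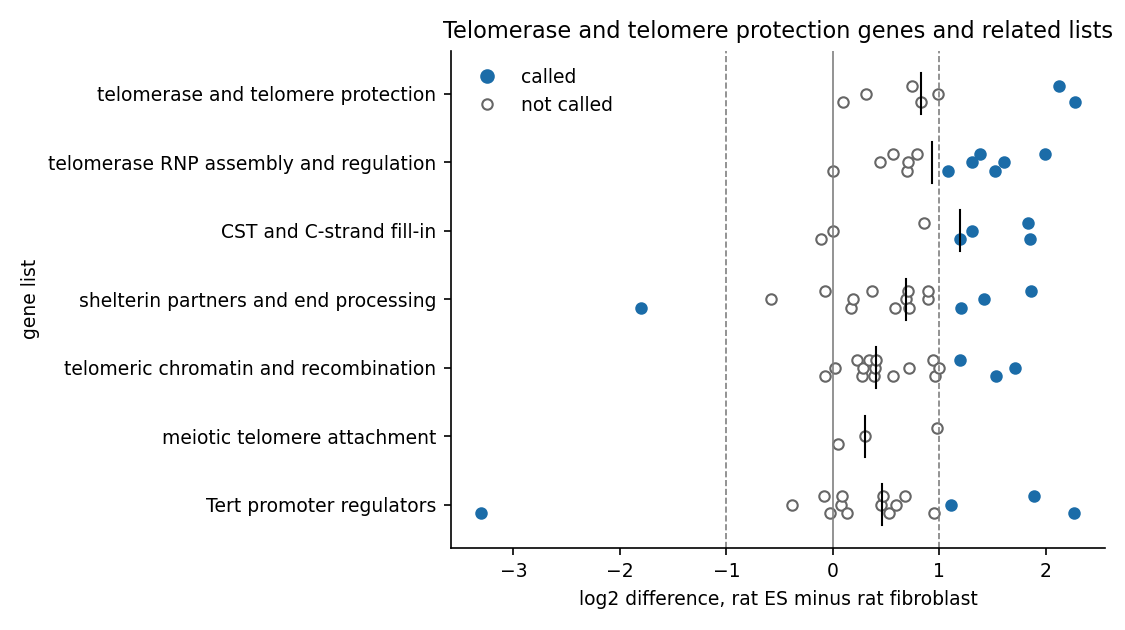
Log2 difference, rat ES minus rat fibroblast, of each measured telomerase and telomere protection gene (top) and of the measured genes of 6 related lists. Filled circles were called, open circles were not, vertical bars mark list medians and dashed lines a 2-fold difference. Ercc1 at -1.80 and Myc at -3.31 are the 2 called on the lower side.

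The genes with the pattern most like that of Tert over the 6 rat arrays were found by the root mean square difference between log2 signals centred on each gene's mean. They were Fam117a (0.031), Scarf1 (0.052), Zfp710 (0.070), Cbx7 (0.079) and Stmn1 (0.083), with log2 differences between 2.22 and 2.32. Among the other members Terf1 was nearest to Tert at 0.231, in place 202 of all genes, and Tinf2 was farthest at 1.10. With 2 groups on 6 arrays this measure is set mainly by the size of the group difference.

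Mouse ES cells were placed beside rat ES cells by rank only, since the platforms and tables differ. The mouse signals of 5 members were the same on all 3 arrays (Tert 5.80, Terf2 7.31, Tinf2 6.85, Acd 6.58 and Rtel1 8.09). Over all mouse probe sets, 16691 to 20845 of 35557 had identical values in a pair of arrays, against at most 30 of 29215 among rat replicates, so the 3 mouse arrays cannot be read as 3 independent measurements and no SD over them is given. Terf1 had 7.80, 7.40 and 7.86, Terf2ip 4.72, 4.72 and 4.73, and Rif1, measured in the mouse table alone, 7.52, 7.11 and 7.77. Mouse array 2 was lowest for both Terf1 and Rif1.

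The percentile of a gene within an array was taken among 12114 symbols shared by both tables. Tert stood at 48.6 to 48.9 in mouse ES cells and at 57.3 to 59.2 in rat ES cells, with 19.0 to 24.1 in rat fibroblasts. Mouse Tert exceeded 99.5% of 1015 olfactory receptor genes on every mouse array. Terf1 stood at 77.2 to 82.0 in mouse and 75.5 to 79.2 in rat ES cells, so these ranges overlapped, while in rat fibroblasts it was at 39.4 to 44.3.

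For the other members the mouse and rat ES ranges did not overlap. Acd (means 62.3 and 91.2) and Terf2ip (30.0 and 54.9), like Tert, ranked lower in mouse ES cells. Tinf2 (67.0 and 52.7), Terf2 (74.6 and 66.7) and Rtel1 (85.3 and 80.6) ranked higher. So 3 of 7 members were lower and 3 higher without overlap, where 42.5% and 44.9% of all shared symbols were. These percentiles and counts are a description with no test, since the mouse arrays share values. Species, medium and probe sequences differ together here and cannot be told apart.

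Among all named mouse genes, the paralogues that stand in for Pot1 ranked apart. Pot1a was at percentile 72.5 to 75.9 and Pot1b at 40.2 to 43.8, with signals of 6.67 to 6.95 and 4.69 to 4.88, though different probe sets cannot be compared for amount. Rif1 was at percentile 79.1 to 85.8. Terc stood at 74.6 to 78.7 among shared symbols in mouse ES cells and at 51.2 to 55.7 in rat ES cells.

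**Figure D3:**
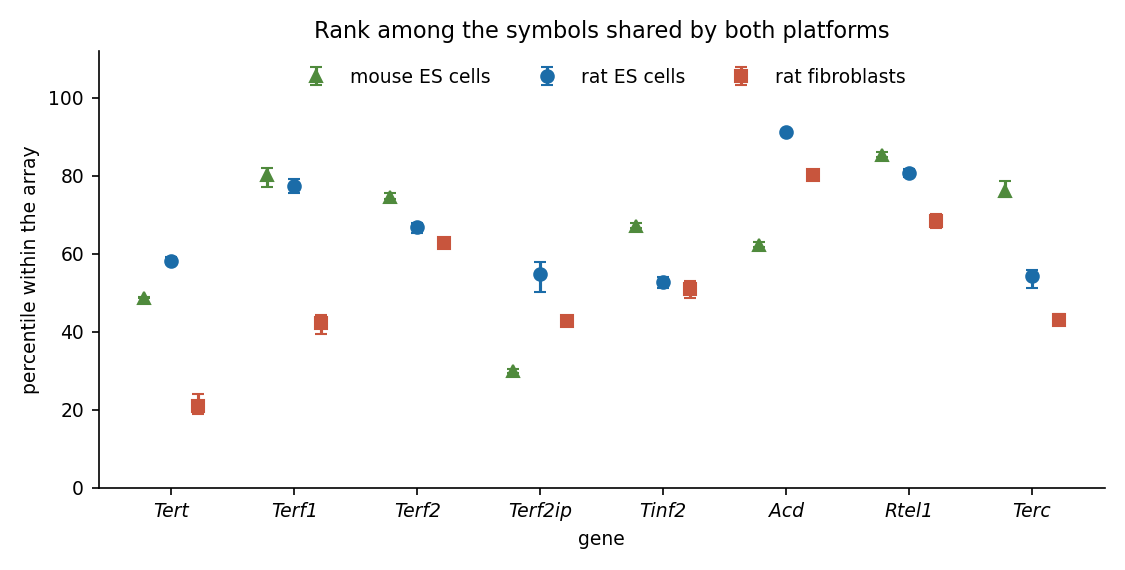
Mean percentile within the array, among symbols shared by both platforms, of the 7 members in both tables and of Terc in mouse ES cells (triangles), rat ES cells (circles) and rat fibroblasts (squares). Bars span the lowest to the highest of 3 arrays. Mouse and rat ES ranges overlap for Terf1, and Acd and Terf2ip stand furthest below their rat ES percentiles.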

How the data were processed

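Each array yielded a column of log2 values per probe set, which the authors deposited in a table of 6 rat arrays and a table of 3 mouse arrays. That the scale is log2 was read from the range of the values. How background was corrected and arrays were normalized is not given in the sources used here. No genome build is given there either. Genes were named through the platform annotation, which can be old. Probe sets annotated with more than 1 symbol, or with none, did not enter, and the probe set of highest mean stood for its gene. Fits between rat groups used lmFit and eBayes of limma 3.58.1 under R 4.3.3, with the group as the only term and no filter. The script was tested on simulated data with known differences. The members and lists were chosen with earlier results of these data known. Genes named are all members, up to 3 called genes with the largest differences per list, called genes against a list's majority, the 5 genes nearest Tert, and mouse Pot1a and Pot1b. Other list genes and the 4 promoter motifs were chosen after their values or sequences were seen. Alternatives covered normalization, filters, probe set choice, variance model, thresholds, replicate block and single arrays left out. Precision is limited by there being 3 arrays a group.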

Additional observations from a re-analysis of the deposited data

How the results depend on the processing

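The 7 members kept a positive log2 difference under every alternative that could be computed for them, with ranges of 2.22 to 2.39 for Tert, 2.03 to 2.19 for Terf1, 0.93 to 1.06 for Acd and 0.22 to 0.38 for Terf2. Only quantile normalization, median centring and leaving out single arrays could move these differences. Filters, probe set choice, variance model, thresholds and the replicate block could not, since each member has 1 probe set and the design is balanced. The number of members called, 2, was 1 with a filter at the median of mean level, which leaves Tert untested, 6 with no fold threshold and 5 at 1.5-fold. It was 2 to 3 when single arrays were left out and 2 under a replicate block. Deviations of same-numbered arrays correlated at -0.00044, 0.031 and -2.96e-04, which cannot settle whether these arrays were paired. Over all genes 2996 were called with and without the block, which leaves every log2 difference unchanged in this balanced design. Terf1 minus Terf2 differed by 1.75 to 1.90 over the alternatives. Under the replicate block it was 1.81, and the exact sign test within numbers, which cannot go lower with 3 pairs, gave p = 0.25. The number of members ranking higher in mouse than in rat ES cells was 4 of 7 under the other alternatives, and 1 among symbols with 3 different mouse values, an alternative chosen after seeing the data that leaves Terf1 as the only member. Percentile differences, mouse minus rat ES, kept their sign but moved: among all named genes Tert went from -9.38 to -3.65, Acd from -28.92 to -21.00 and Terf1 from 2.87 to 5.74, and with a filter at the 25th percentile Acd went to -42.05 and Tert to -13.30. Of the called genes in the telomere-related lists, Myc and Rad51ap1 were untested with the filter at the median. The alternative for linear values did not apply to these log2 values.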
